A study of Mus musculus with 40 samples.

Results

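Of the 40 arrays of the series, 8 were taken by their labels: the High fat diet (HFC) and Low fat diet (LFC) arrays of days 1, 6 and 10 and of week 0, which form 4 pairs of equal time on diet. The HFC and LFC arrays labelled day 14 served only as a check, because 20.8% of the spots of that LFC array were marked as outliers, against 0.126% on its HFC partner. RNA from subcutaneous fat, which the series calls SVCs or infiltrating macrophages, was hybridized to 1-colour Agilent mouse arrays with 40628 probes. The comparison asks how gene expression differs between the diets in the days before other animals of the study received the botanical formulation Kal-1.

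Both groups were weaned C57BL/6J mice that began their diet at an age of 3 to 4 weeks, and neither received Kal-1. LFC mice ate chow with 10% of its calories from fat, and HFC mice ate chow with 60% of its calories from fat and with added sucrose. The sex of the mice and the number of animals behind each array are not stated. The labels describe freezing of tissue and no step that isolates cells. The study's methods count weeks from day 14, so week 0 and day 14 are the same day on diet.

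The stromal vascular cells of fat are the cells that remain when the lipid-filled adipocytes are removed: macrophages and other leukocytes, fibroblasts and preadipocytes, and the cells of vessels. Macrophages accumulate in fat as it expands and are a hallmark of diet-induced obesity. Subcutaneous fat depots also enclose lymph nodes, in which B cells gather in follicles, T cells surround them, and lymphocytes enter from the blood through high endothelial venules.

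A level is the log2 of a probe's background-subtracted signal minus the log2 of its array's 75th percentile, so 0 marks a signal at that percentile. Differences are HFC minus LFC, so a negative value means lower on the High fat array, and a difference of 1 is a 2-fold change in signal. Values are given in the order day 1, day 6, day 10 and week 0. The 75th percentile itself was 824, 393, 474 and 1283 on the LFC arrays and 917, 161, 707 and 1296 on the HFC arrays, in the deposited intensity units. Median signal over background was 5.26, 2.44, 3.39 and 7.12 on the LFC arrays and 6.94, 2.09, 4.65 and 7.79 on the HFC arrays. Spots well above background, a flag set by the image software, made up 66.1%, 52.2%, 68.8% and 67.1% of the LFC arrays. They made up 81.6%, 72.8%, 73.3% and 73.7% of the HFC arrays, a larger share than on the LFC partner in all 4 pairs. The arrays of the day 6 and week 0 pairs shared a slide, those of day 10 shared a scan date only, and those of day 1 shared neither, so the day 6 and week 0 values are within-slide values. The titles of both day 6 arrays carry another prefix than all other arrays of the series, and its meaning is not stated. Each time point has 1 array per diet, so its values carry no replicate of their own.

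The label of a stromal or macrophage sample was checked against 14 macrophage markers, of which 12 could be tested. Their mean level was 0.95, 0.94, 0.41 and 1.33 on the LFC arrays and -1.18, 0.39, 1.56 and 1.55 on the HFC arrays, and the brightest was C1qc. On each array at least 11 of the 12 were well above background. Markers of other cells were present as well. The mean level of 13 adipocyte markers was 2.39, 5.91, 3.01 and 2.52 on the LFC arrays and 4.85, 5.35, 2.59 and 2.55 on the HFC arrays, and all 13 were well above background on all 8 arrays. It was highest on HFC day 1 and on both day 6 arrays, where it lay between 4.85 and 5.91, and between 2.39 and 3.01 on the other 5 arrays.

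Adiponectin (Adipoq), which mature adipocytes secrete, was 2.94, 6.80 and 4.29 on the LFC arrays of days 1, 6 and 10 and 6.22, 7.22, 2.85 and 3.66 on the 4 HFC arrays. The same 3 arrays held its highest values, and its LFC week 0 spot was an outlier and had no value. All 8 arrays thus go against a label of stromal or macrophage cells free of adipocyte RNA. All 13 adipocyte markers were well above background on each, though some, such as Lpl and Fabp4, also stand on lists of other cells. Whether whole adipocytes were in the samples was not tested. The mean of the 13 was highest on HFC day 1 and both day 6 arrays. The day 10 and week 0 pairs do not contain those 3 arrays, and values over these later 2 pairs are given beside those over all 4. Skeletal muscle and skin markers also differed between arrays. The 4 probes for Xist, the transcript of the inactive X chromosome, were at 2.27, 0.38, -2.53 and -4.32 on LFC day 1 and were not well above background on the other 7 arrays. Ddx3y, a gene of the Y chromosome, was -0.16, 0.25, 1.47 and 1.28 on the LFC arrays and 0.82, 0.74, 1.21 and 0.97 on the HFC arrays. It was well above background on all 8 arrays, with its lowest level on LFC day 1. The arrays of the day 1 pair thus differed in Xist as well as in diet. The part of sex in the day 1 differences was not tested.

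Genes of lymphocytes and lymph nodes were lower on the High fat arrays at days 1, 6 and 10, and genes of the adipocyte and of fat oxidation were higher on the High fat array at day 1. None of these differences passed the test. Of 23245 genes tested, limma called 0 higher (0%) and 0 lower (0%) at an adjusted p under 0.05, and the smallest adjusted p was 0.673. At an unadjusted p under 0.05, limma gave 1640 genes, 1271 higher and 369 lower. Quantile normalization gave 594 higher and 743 lower, and genes well above background on all 8 arrays 210 higher and 289 lower, so the surplus of higher genes depended on scaling and filter. On the values shifted by the 75th percentile a two-sample t-test gave 732 genes, of which 0 passed adjustment. The study's t-test compares 3 values per group at one time point, whereas here the 4 time points of a diet served as replicates. With normexp background correction in place of the deposited subtraction, 57 genes were called higher and 6281 lower. These counts were 0 and 0 when its fit left out the few spots with background far above signal, a choice made after the data were seen. The median standard error of a gene's mean difference over the 4 pairs was 0.51. An exact sign-flip test over 4 pairs cannot go below a two-sided p of 0.125 for any single gene.

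The median difference over all tested genes was 0.23, so a list median over the 4 pairs is read against 0.23. Over the day 10 and week 0 pairs alone it was 0.01. This shift depended on the scaling, and was 0.00 after quantile normalization, -0.73 after normexp background correction and 0.06 over the 14202 genes well above background on all 8 arrays. By time point the shift was 0.36, 0.60, -0.06 and 0.01. Among genes well above background on both arrays of a pair, it was 0.09, 0.16, -0.07 and 0.00.

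Fewer genes lay 2-fold apart between the diets in the later pairs than in the earlier ones, but not with normexp background correction. It put 11932 genes 2-fold apart at week 0, more than the 6284 at day 6 and 2170 at day 10. When its fit left out the few spots of high background, the counts were 7339, 9578, 2167 and 367, again fewer in the later pairs. At day 1, 8209 genes (35.3%) were at least 2-fold higher on the High fat array and 4700 (20.2%) at least 2-fold lower. At day 6 these were 9221 genes (39.7%) and 2879 genes (12.4%). With normexp more genes were lower than higher at both, 3063 higher and 12846 lower at day 1 and 2204 and 4080 at day 6. Without the spots of high background these were 3734 and 3605 at day 1 and 7848 and 1730 at day 6. Day 10 had 2612 genes (11.2%) higher and 2852 (12.3%) lower by that margin. Week 0 had 1374 genes (5.91%) higher and 540 (2.32%) lower. Across genes, which are not independent replicates, Spearman's correlation between the arrays of a pair was 0.836, 0.876, 0.953 and 0.989. The pairs that differed most were those holding the 3 arrays with high adipocyte markers, and the part of these arrays in the counts was not tested.

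**Figure D1:**
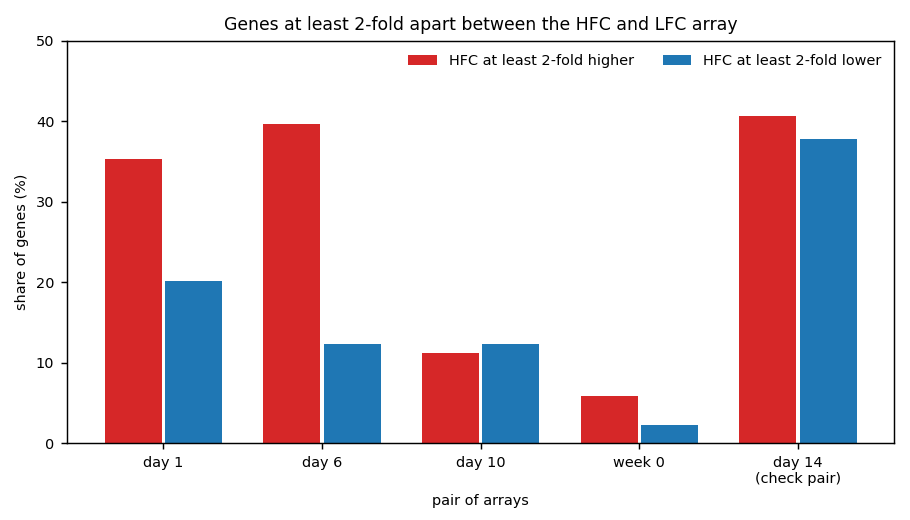
Share of the tested genes at least 2-fold higher or lower on the High fat array, by time point, with the day 14 check pair. The shares at week 0, 5.91% higher and 2.32% lower, were the smallest of the 5 pairs with the 75th percentile scaling. Leaving day 14 aside, normexp gave week 0 the fewest genes 2-fold higher, 269, but not the fewest lower, 11663 against 1238 at day 10. When its fit left out the few spots of high background, week 0 had the fewest in both directions, 242 higher and 125 lower.

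In all 4 pairs, 2598 genes (11.2%) were higher on the High fat array by any amount and 911 (3.92%) were lower. By at least 2-fold in all 4 pairs, 120 genes (0.516%) were higher and 27 (0.116%) lower, 147 in all. These shares are the background for the member counts that follow. Quantile normalization gave 52 genes higher and 59 lower by the same rule, so the surplus of higher genes was not present under that scaling.

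Markers of the lymph node were lower on the High fat arrays at days 1, 6 and 10. Of 9 tested, 7 were lower in all 4 pairs, where the background is 3.92% of all genes, among them Ccl19, Cxcl13, Glycam1 and Ccr7. Their mean level was 2.83, 0.68, 2.45 and 0.84 on the LFC arrays and -4.23, -2.28, -1.42 and 0.28 on the HFC arrays. The 4 LFC means exceeded the 4 HFC means, and the pair lay closest at week 0. The median difference was -3.99, with -7.20, -3.85 and -4.39 at days 1, 6 and 10 and -0.57 at week 0, and -2.17 over the day 10 and week 0 pairs alone. All 9 members were at least 2-fold lower at day 1, where the background is 20.2%. In bulk RNA such as this, fewer cells of a type and less RNA per cell cannot be told apart.

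Glycam1 is a mucin-like protein made by high endothelial venules. Its level was 5.75, 3.40, 5.20 and 3.81 on the LFC arrays and -4.52, -2.89, -0.66 and 2.36 on the HFC arrays. Every LFC array exceeded every HFC array, and the mean difference was -5.97 (SE 1.31, 4 pairs). The share of all genes whose diets separate in this way is not given, so this and later separations are description only. Ccl19, a chemokine of the T cell zone, was 3.49, 4.65, 4.21 and 2.54 on the LFC arrays and -2.54, 2.26, 2.10 and 2.28 on the HFC arrays. It was lowest on HFC day 1, and all 4 LFC levels exceeded all 4 HFC levels. Ccr7, the receptor for Ccl19 on T cells and dendritic cells, was 3.53, 0.87, 3.49 and 1.85 on the LFC arrays and -4.83, -3.59, 0.24 and 1.76 on the HFC arrays. The groups overlapped, since HFC week 0 lay above LFC day 6. Ltb, the membrane lymphotoxin that lymph node formation requires, was 5.70, 4.00, 5.64 and 2.02 on the LFC arrays and -1.71, 0.15, 1.25 and 3.11 on the HFC arrays, lower on the High fat array at 3 time points and higher by 1.09 at week 0.

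B cell markers were lower as well. Of 9 tested, 6 were lower on the High fat array in all 4 pairs, among them Cd79b, Cr2 and Cd22, and 0 of 9 were at least 2-fold lower in each pair. The mean level was 0.00, -1.65, -0.24 and -1.21 on the LFC arrays and -4.48, -3.23, -4.31 and -1.65 on the HFC arrays, with every HFC array below its LFC partner. Over the list, the median difference was -3.12, with -5.69, -1.48 and -4.15 at days 1, 6 and 10 and -0.41 at week 0, and -2.28 over the later 2 pairs. Cd79b, a signalling chain of the B cell receptor, was 4.28, 2.39, 3.34 and 2.87 on the LFC arrays and -2.55, -0.96, -1.35 and 2.37 on the HFC arrays. Its HFC week 0 level lay just under the lowest LFC level, and the other 3 HFC levels lay far lower. Cd22, an inhibitory receptor of B cells, was 1.39, -0.79, 1.07 and -0.02 on the LFC arrays and -4.46, -5.27, -3.08 and -0.42 on the HFC arrays and not well above background on HFC day 6, and another of its probes gave a mean difference of only -0.64.

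The median difference of T cell markers was negative at days 1, 6 and 10 but not at week 0, and 0 of 11 were lower in all 4 pairs. Their mean level was 0.80, -0.90, 0.39 and -1.55 on the LFC arrays and -4.57, -2.54, -2.12 and -1.23 on the HFC arrays. This median was -2.62 over the 4 pairs, with -6.45, -1.94 and -2.91 at days 1, 6 and 10 and 0.34 at week 0, and -1.22 over the later 2 pairs. Cd3d, a chain of the T cell receptor complex, was 3.44, 2.18, 2.87 and 0.70 on the LFC arrays and -3.71, -3.20, -0.27 and 1.23 on the HFC arrays. Lck, the kinase that starts T cell receptor signalling, was 3.01, 0.79, 2.66 and 0.82 on the LFC arrays and -4.04, -1.66, -0.24 and 0.86 on the HFC arrays. Both were at their lowest on HFC day 1 and stood level or higher on HFC at week 0. Cytotoxic lymphocyte markers had a mean level of 0.01, -1.68, -0.65 and -0.77 on the LFC arrays and -4.89, -2.55, -0.99 and -0.61 on the HFC arrays, and a median difference of -1.88, which was -0.11 over the later 2 pairs. Of 10 tested, Gzmb, Nkg7 and Ccl5 were lower in all 4 pairs. Nkg7, a granule membrane protein of killer cells, was 2.26, 0.99, 1.75 and 1.72 on the LFC arrays and -3.52, -1.56, 1.05 and 1.68 on the HFC arrays, and at week 0 the diets differed by 0.04. Another probe of Nkg7 gave a mean difference of only -0.06.

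Genes of MHC class II antigen presentation were lower at days 1, 6 and 10. Their mean level was 1.79, 0.87, 1.62 and 1.31 on the LFC arrays and -3.08, -1.11, 0.01 and 1.19 on the HFC arrays, and the brightest, Cd74, was saturated on LFC day 1 and on both week 0 arrays. Of 10 tested, H2-Ab1, H2-DMb2, H2-Oa and H2-Ob were lower in all 4 pairs. Differences had a median of -2.24, with -4.86, -2.33 and -1.04 at days 1, 6 and 10 and -0.06 at week 0, and -0.51 over the later 2 pairs. H2-Ab1, a beta chain that presents peptides to helper T cells, was 6.40, 5.19, 5.55 and 6.04 on the LFC arrays and 0.27, 3.06, 5.00 and 5.66 on the HFC arrays. Its LFC levels stayed within 1.21 of each other, and its lowest HFC level was at day 1. Neutrophil markers had a mean level of 0.18, -1.68, 0.04 and 0.03 on the LFC arrays and -2.84, -2.93, -0.53 and -0.24 on the HFC arrays and a median difference of -1.45, or -0.54 over the later 2 pairs. Of 9 tested, S100a8, S100a9 and Mpo were lower in all 4 pairs. S100a9, a calcium-binding protein abundant in neutrophils, was 5.86, 4.33, 6.04 and 4.95 on the LFC arrays and 2.32, 0.33, 5.04 and 4.70 on the HFC arrays, lowest on HFC day 6.

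**Figure D2:**
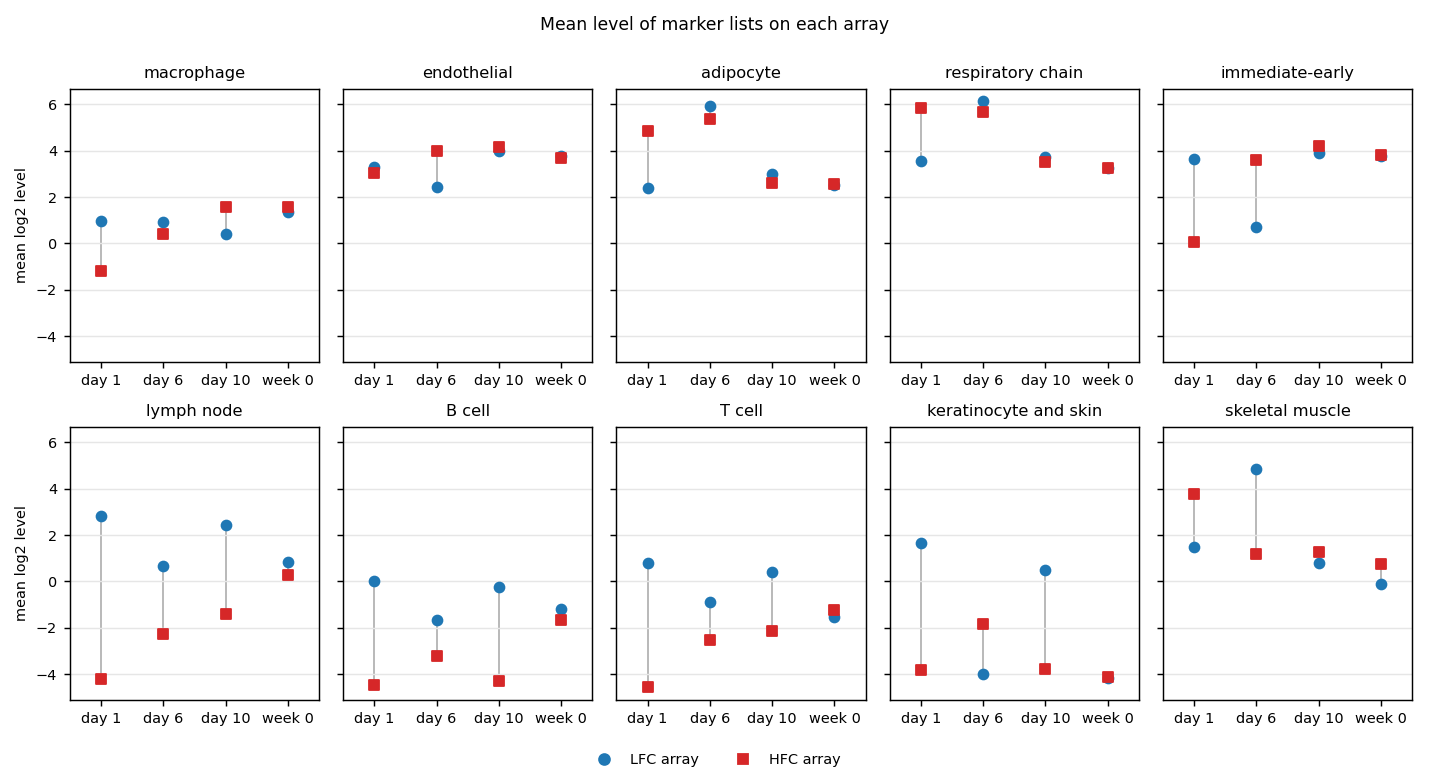
Mean level (log2, relative to each array's 75th percentile) of the tested members of 10 gene lists on the 4 LFC and 4 HFC arrays, by time point. Lymph node markers stood at 2.83 on LFC and -4.23 on HFC at day 1 and at 0.84 and 0.28 at week 0.

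Of the 27 genes at least 2-fold lower on the High fat array in all 4 pairs, 20 were well above background on all 4 arrays of a diet. The 10 named ones are those whose smallest pair difference was largest. Slpi, the secretory leukocyte protease inhibitor, was 4.71, 2.99, 4.55 and 3.57 on the LFC arrays and -2.22, -0.74, 0.90 and 1.08 on the HFC arrays. Igj, now Jchain, which joins the units of IgM and IgA, was 3.39, 1.67, 4.26 and 2.63 on the LFC arrays and -3.93, -0.97, -0.04 and 0.85 on the HFC arrays. Cxcl13, the chemokine that draws B cells into follicles, was 2.54, -0.68, 1.62 and 0.52 on the LFC arrays and -4.97, -2.76, -3.02 and -1.24 on the HFC arrays. In each of the 3 the lowest LFC level exceeded the highest HFC level. The named genes were chosen by pair differences in these same values, which favours such separation, so it is no separate support. The mean differences were -4.2 for Slpi (SE 0.76, 4 pairs), -4.01 for Igj (SE 0.92) and -4.00 for Cxcl13 (SE 1.00). A second probe of Slpi gave a mean difference of only -0.48.

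Fcrla, an Fc receptor-like protein of B cells, was 0.81, -1.91, 0.48 and 0.92 on the LFC arrays and -6.98, -6.16, -3.37 and -0.99 on the HFC arrays. Tnfrsf13c, the receptor for the B cell survival factor BAFF, was 1.40, -0.72, 0.43 and -0.26 on the LFC arrays and -5.33, -4.11, -4.09 and -1.38 on the HFC arrays. A variable segment of the immunoglobulin heavy chain was -1.22, -3.29, -1.85 and -1.95 on the LFC arrays and -6.04, -4.45, -4.28 and -3.14 on the HFC arrays. All 3 were not well above background on HFC day 6, and Fcrla not on HFC day 1 either. On these arrays they lay below every LFC level, and the HFC week 0 level was the highest HFC level of each. For Fcrla and the heavy chain segment that level exceeded LFC day 6, while for Tnfrsf13c the diets did not overlap.

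Ccl20, the chemokine ligand of Ccr6, was -0.79, -4.02, -1.96 and -2.49 on the LFC arrays and -7.97, -5.94, -6.44 and -6.84 on the HFC arrays. Grem1, an antagonist of bone morphogenetic proteins, was -2.62, -3.43, -0.94 and -4.86 on the LFC arrays and -8.17, -5.76, -5.49 and -6.23 on the HFC arrays. Both were not well above background on HFC days 1 and 6, so the differences of those pairs are to a signal near background. Ccl20 was also near background on HFC day 10 and week 0. The lowest levels called well above background there were -6.75 and -7.07. For each gene the 4 LFC levels exceeded the 4 HFC levels. Apobec3, a cytidine deaminase that restricts retroviruses, was -2.10, -1.77, -2.63 and -2.75 on the LFC arrays and -4.64, -3.38, -4.50 and -4.15 on the HFC arrays. Its 4 LFC levels lay within 0.98 of each other and above all 4 HFC levels, and its mean difference was -1.85 (SE 0.40, 4 pairs). The adjusted p of each of these 10 genes, Glycam1 included, was 0.673. A further 6 genes known only by identifiers ranked among them and are counted, not named.

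**Figure D3:**
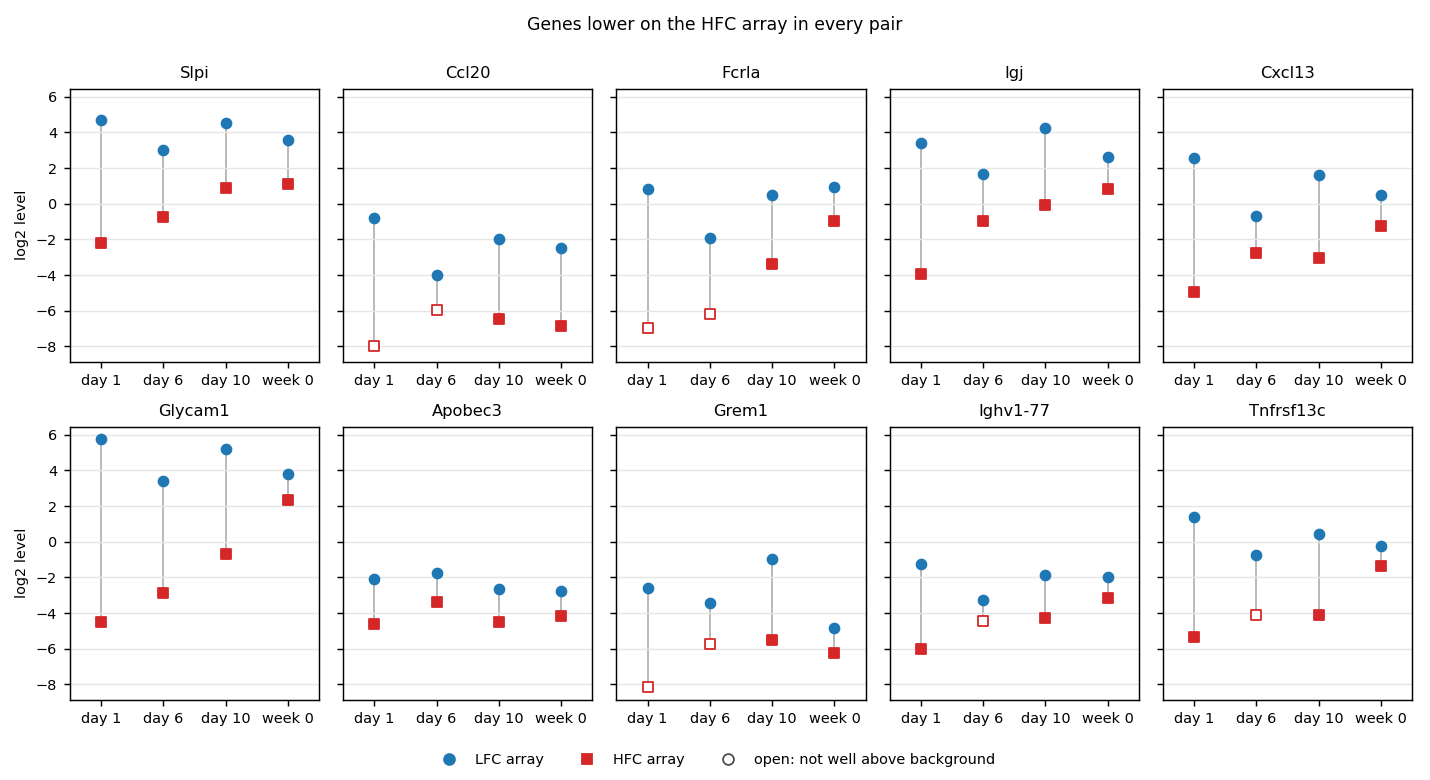
Level (log2, relative to each array's 75th percentile) of the 10 named genes lower on High fat, on each LFC and HFC array by time point, with open symbols for spots not well above background. Slpi ranged from 2.99 to 4.71 on LFC and from -2.22 to 1.08 on HFC.

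Many of the genes higher on High fat in all 4 pairs were dim on the Low fat arrays. Of the 120 genes at least 2-fold higher, 66 were well above background on no LFC array, and of the 27 at least 2-fold lower, 2 were well above background on no HFC array. With the requirement that a gene be well above background on all 4 arrays of a diet, 69 were higher and 20 lower. The larger share of spots well above background on the HFC array of every pair moves with this surplus, and its part was not tested.

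On all 8 arrays well above background, 5 genes were at least 2-fold higher and 7 at least 2-fold lower in all 4 pairs. These were picked out after their values were seen. The higher ones were Nnat, Sycn, Gdf5 and 2 genes with identifiers for names. The lower ones were Slpi, Igj, Cxcl13, Glycam1, Apobec3 and 2 genes with identifiers for names. Nnat, the imprinted membrane protein neuronatin, was -3.44, -0.40, -3.59 and -2.91 on the LFC arrays and -1.31, 1.75, -1.80 and -0.44 on the HFC arrays. Each HFC level exceeded its LFC partner by 1.79 or more, although the LFC level of day 6 lay above 3 of the HFC levels. Gdf5, a growth factor of the bone morphogenetic protein family, was -4.15, -2.12, -3.67 and -1.33 on the LFC arrays and -0.37, -0.42, -1.42 and -0.25 on the HFC arrays. Sycn, syncollin of secretory granules, was -5.04, -3.04, -4.89 and -5.56 on the LFC arrays and -2.87, -1.50, -3.53 and -2.93 on the HFC arrays. In both, the highest LFC level exceeded the lowest HFC level. The mean differences were 2.13 for Nnat (SE 0.37, 4 pairs), 2.20 for Gdf5 (SE 0.54) and 1.92 for Sycn (SE 0.41).

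The remaining named genes higher on High fat had LFC levels that were in part not well above background. Cftr, an epithelial chloride channel, was -4.81, -5.78, -4.98 and -4.94 on the LFC arrays and -2.74, -1.84, -2.86 and -0.11 on the HFC arrays, not well above background on LFC day 6. Trav7-1, a variable segment of the T cell receptor alpha chain, was -6.86, -5.91, -4.04 and 1.03 on the LFC arrays and -2.10, 1.05, -2.12 and 3.65 on the HFC arrays, not well above background on LFC days 1 and 6. Hand2, a transcription factor of heart and limb development, was -4.64, -5.97, -5.81 and -3.29 on the LFC arrays and -2.14, -1.29, -3.66 and -1.70 on the HFC arrays, not well above background on LFC days 6 and 10. The diets did not overlap for Cftr, while for Trav7-1 and Hand2 the LFC week 0 level exceeded at least 1 HFC level. Other probes of Cftr, Trav7-1 and Hand2 gave smaller mean differences, down to 0.40, 0.89 and 1.19.

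Defa-rs10, related to the gut defensins, was -5.71, -5.49, -4.55 and -2.52 on the LFC arrays and -2.32, -2.05, -2.63 and -1.04 on the HFC arrays, not well above background on LFC day 6. Mup-ps21, a pseudogene of the major urinary proteins, was -5.06, -6.05, -6.16 and -1.91 on the LFC arrays and -3.42, -2.03, -4.10 and -0.38 on the HFC arrays, not well above background on LFC days 6 and 10. Btg4 was -7.50, -5.97, -5.13 and -2.90 on the LFC arrays and -5.76, -3.54, -2.87 and -1.31 on the HFC arrays, and Aym1 was -8.04, -5.88, -6.03 and -3.62 on the LFC arrays and -4.06, -3.72, -4.60 and -2.05 on the HFC arrays. Btg4 was well above background on LFC day 10 and week 0 only, and Aym1 on LFC week 0 only. Ppyr1, now Npy4r, a receptor for pancreatic polypeptide, and Tdgf1, a co-receptor for the growth factor Nodal, were well above background on no LFC array and on all 4 HFC arrays. Against the lowest level called well above background, and as a mean over the 4 pairs, Ppyr1 was at least 2.17-fold higher and Tdgf1 at least 1.95-fold higher on High fat. The week 0 pair of Tdgf1 alone gives no bound, since its HFC level lay below that lowest level on the LFC array. All 10 named genes had an adjusted p of 0.673, and a further 16 ranked among them with identifiers for names.

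**Figure D4:**
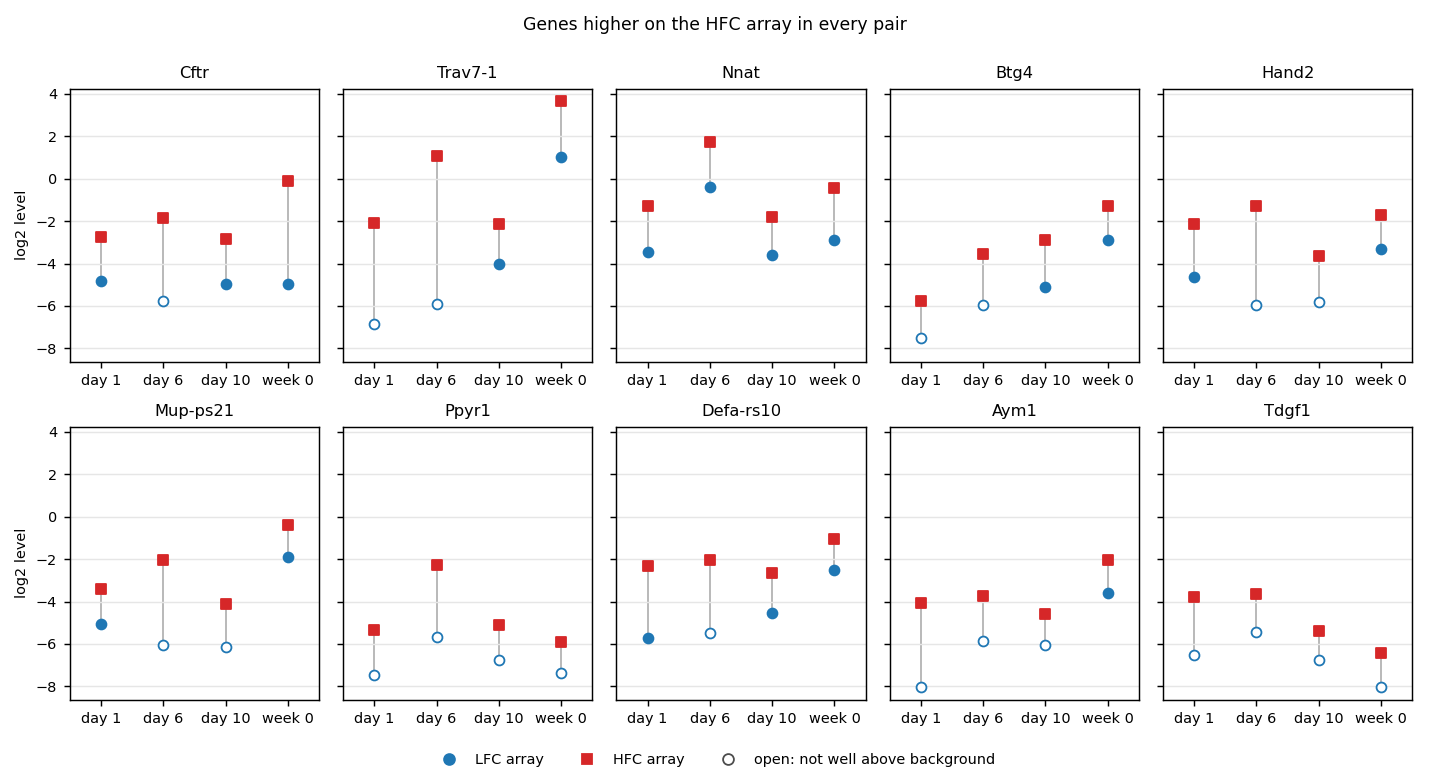
Level (log2, relative to each array's 75th percentile) of the 10 named genes higher on High fat, on each LFC and HFC array by time point, with open symbols for spots not well above background. Nnat ranged from -3.59 to -0.40 on LFC and from -1.80 to 1.75 on HFC.

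Macrophage markers were lower on High fat at day 1 and higher at day 10. Of 12 tested, 0 were lower or higher in all 4 pairs. The median difference was -0.39, with -1.92, -0.47 and 0.74 at days 1, 6 and 10 and 0.22 at week 0, and 0.40 over the later 2 pairs, the opposite sign. C1qc, a subunit of complement C1q that tissue macrophages make, was 2.32, 3.88, 2.84 and 3.11 on the LFC arrays and 1.11, 2.89, 3.41 and 3.33 on the HFC arrays. Emr1, now Adgre1, an adhesion receptor of macrophages, was 2.12, 2.43, 1.94 and 2.39 on the LFC arrays and -0.01, 2.06, 3.25 and 2.97 on the HFC arrays. Both had their lowest level on HFC day 1, and at day 10 and week 0 each was higher on High fat. Csf1r, the receptor for the macrophage growth factor, was 1.45, 2.57, 1.56 and 1.58 on the LFC arrays and -0.26, 0.92, 2.26 and 1.81 on the HFC arrays, and its probes differed in sign.

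Markers of lipid-associated macrophages, the cells that take up lipid from dying adipocytes, had a median difference of -0.25 and 0.19 over the later 2 pairs. Lgals3, the lectin galectin-3, was 2.71, 4.11, 2.54 and 3.55 on the LFC arrays and -1.05, 2.59, 2.61 and 3.24 on the HFC arrays, with HFC day 1 alone below 0. Markers called M1-type, of macrophages activated by interferon and microbial products, had a median of -0.81, with -4.95, 1.94 and 0.60 at days 1, 6 and 10 and -0.40 at week 0, and 0.02 over the later 2 pairs. Il6, the cytokine interleukin 6, was 2.95, -1.44, 4.44 and 5.06 on the LFC arrays and -6.82, 2.57, 5.04 and 4.33 on the HFC arrays, not well above background on HFC day 1. Its day 1 and day 6 differences had opposite signs. Markers called M2-type, linked to repair and parasite defence, had a median of -0.42, with -2.47, -0.90 and 0.86 at days 1, 6 and 10 and 0.28 at week 0. Retnla, a secreted product of such macrophages, was 3.81, 4.2, 3.86 and 5.43 on the LFC arrays and 0.58, 2.94, 5.90 and 5.67 on the HFC arrays, lower on High fat at days 1 and 6 and higher at day 10 and week 0. Over the later 2 pairs the M2-type median was 0.65, opposite in sign to the median over 4 pairs. In these 3 lists 0 members were higher in all 4 pairs, and only Ccl5, of the M1-type list, was lower in all 4.

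The chemokine list, which shares Cxcl13 with the lymph node list, was lower on High fat at day 1, where 13 of 15 were at least 2-fold lower (background 20.2%). At day 6 its median lay near that of all genes, with 6 of 15 at least 2-fold higher (background 39.7%) and 4 of 15 at least 2-fold lower (background 12.4%). The list had a median of -0.59, with -4.30, 0.64 and 0.84 at days 1, 6 and 10 and -0.27 at week 0, and 0.25 over the later 2 pairs. Of 15 tested, Ccl8, Ccl12 and Cxcl13 were lower in all 4 pairs. Ccl2, which draws monocytes, was 3.07, 0.90, 3.96 and 5.03 on the LFC arrays and -1.23, 3.58, 5.17 and 3.84 on the HFC arrays. Ccl8, a related ligand, was 1.12, 3.26, 3.66 and 3.23 on the LFC arrays and -4.78, 1.55, 2.59 and 2.62 on the HFC arrays. Ccl2 was lower on High fat at day 1 and week 0 and higher at days 6 and 10, while Ccl8 was lowest on HFC day 1. The chemokine, M1-type and interferon-stimulated lists had their lowest mean levels of the 8 arrays on HFC day 1 and LFC day 6. So did the immediate-early list, given below, with a median difference of -3.56 at day 1 and 3.08 at day 6. What moved these lists together on the 2 arrays was not tested. Complement genes had a median of -0.36 and 0.32 over the later 2 pairs. Among the 13 tested, Cfb and Cd55 were lower in all 4 pairs and C5ar1 was higher in all 4, while C3 was saturated on both week 0 arrays and gives no direction there. Cfb, factor B of the alternative pathway, was 4.80, 5.06, 4.35 and 4.10 on the LFC arrays and 0.00, 3.72, 4.33 and 3.89 on the HFC arrays, and the level on HFC day 1 stood far below the other 7.

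Interferon-stimulated genes had a median difference of -0.74, with -3.88, 0.86 and 0.38 at days 1, 6 and 10 and -0.47 at week 0, and 0.03 over the later 2 pairs. Of 16 tested, 15 were at least 2-fold lower at day 1, where the background is 20.2% of genes. Isg15, a ubiquitin-like modifier, was 3.38, 1.46, 2.83 and 2.64 on the LFC arrays and -1.0, 2.54, 3.04 and 2.42 on the HFC arrays. Cxcl10, a chemokine for activated T cells that also stands on the M1-type list, was 4.12, -0.58, 3.60 and 3.55 on the LFC arrays and -5.03, 3.12, 4.37 and 3.15 on the HFC arrays. Both were lowest on HFC day 1, below the other 7 arrays.

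Endothelial markers had a mean level of 3.28, 2.45, 3.98 and 3.77 on the LFC arrays and 3.02, 4.00, 4.15 and 3.69 on the HFC arrays and the diets lay furthest apart at day 6. Apart from Fabp4, which was saturated, 7 of 9 were at least 2-fold higher at day 6, where the background is 39.7%. Over all 10 tested, the median difference was 0.46, with 0.25, 1.68 and 0.11 at days 1, 6 and 10 and -0.14 at week 0, and 0.01 over the later 2 pairs. Robo4, a guidance receptor of endothelium, was 4.57, 4.56, 5.71 and 5.61 on the LFC arrays and 4.03, 6.84, 5.88 and 5.37 on the HFC arrays, saturated on LFC week 0. Flt1, a receptor for VEGF, was 4.49, 3.60, 5.26 and 4.98 on the LFC arrays and 5.22, 5.80, 5.26 and 4.65 on the HFC arrays. Flt1 was highest on HFC day 6. Vwf, the clotting factor carrier of endothelium, was 4.97, 3.25, 5.48 and 5.62 on the LFC arrays and 1.23, 4.04, 5.73 and 5.61 on the HFC arrays, lowest on HFC day 1 and saturated on both week 0 arrays.

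Smooth muscle and pericyte markers had a median of 0.06, which was below that of all genes and at 0.00 after quantile normalization and 0.27 over the later 2 pairs. Rgs5, a regulator of G protein signalling in pericytes, was 2.51, 1.31, 3.47 and 3.21 on the LFC arrays and 3.35, 4.49, 4.15 and 2.77 on the HFC arrays, higher on High fat at days 1, 6 and 10. Myh11, the smooth muscle myosin, was 4.49, 2.50, 5.70 and 5.95 on the LFC arrays and 1.89, 2.87, 6.30 and 5.84 on the HFC arrays, saturated on both week 0 arrays. Mast cell markers had a median of -0.42 and 0.02 over the later 2 pairs. Cma1, a mast cell chymase, was 1.51, 2.68, 1.72 and 2.38 on the LFC arrays and 0.77, -0.12, 2.76 and 1.44 on the HFC arrays, lowest on HFC day 6. In both lists 0 members had the same sign in all 4 pairs.

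Fibroblast and preadipocyte markers had a mean level of 2.35, 2.28, 2.69 and 2.51 on the LFC arrays and 1.14, 1.86, 3.04 and 2.63 on the HFC arrays and a median of -0.40, or 0.12 over the later 2 pairs. Among the 13 tested, Zfp423 was higher in all 4 pairs. Col1a2, Col3a1 and Dcn were saturated on both arrays of at least 1 pair, so they give no direction there. Cd34, a surface antigen of adipose progenitors and endothelium, was 5.04, 5.37, 5.60 and 5.26 on the LFC arrays and 3.01, 5.32, 6.10 and 5.24 on the HFC arrays. It was lower by 2.03 on High fat at day 1 and within 0.50 at the other time points. Collagen and matrix genes had a median of -0.40, with -1.11, -0.92 and 0.53 at days 1, 6 and 10 and 0.06 at week 0, and 0.35 over the later 2 pairs. Col1a2, a chain of type I collagen, was 5.97, 7.18, 6.70 and 5.72 on the LFC arrays and 5.05, 6.03, 6.25 and 5.65 on the HFC arrays, saturated on LFC days 1 and 10, HFC day 10 and both week 0 arrays. With both arrays saturated at day 10 and week 0, its differences there reflect the scaling and give no direction. Genes of the IGF axis had a median of 0.10, or 0.15 over the later 2 pairs, and of 10 tested Igf2r alone was higher in all 4 pairs. Igf1, the growth factor, was 1.38, 4.97, 2.01 and 2.29 on the LFC arrays and 0.65, 3.68, 2.06 and 2.48 on the HFC arrays, with both day 6 levels above the other 6. Schwann and nerve markers had a median of -0.93 and 0.39 over the later 2 pairs, and Mbp alone of 8 was lower in all 4 pairs. Mbp, the myelin basic protein, was 5.62, 1.90, 4.73 and 5.12 on the LFC arrays and -0.44, 1.53, 3.70 and 4.96 on the HFC arrays, lowest on HFC day 1.

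Adipocyte markers were higher on the High fat array at day 1 and not at the later time points. Of 13 tested, 10 were at least 2-fold higher at day 1 (background 35.3%) and 0 had the same sign in all 4 pairs. Over the list, the median difference was 0.45, with 2.42, -0.54 and -0.29 at days 1, 6 and 10 and -0.05 at week 0, and -0.13 over the later 2 pairs. Lpl, the lipase that frees fatty acids from lipoproteins, was 3.64, 7.56, 4.53 and 4.23 on the LFC arrays and 6.02, 7.21, 4.26 and 4.60 on the HFC arrays, saturated on HFC day 1 and LFC day 6. Cidec, a lipid droplet protein, was 3.72, 7.29, 4.84 and 3.63 on the LFC arrays and 5.98, 8.19, 3.44 and 3.69 on the HFC arrays, saturated on the same arrays. Fabp4, the fatty acid binding protein of adipocytes and the brightest of the list, was saturated on all 8 arrays and gives no fold. Lipolysis and lipid droplet genes had a median of 0.39, with 3.14, -0.85 and -0.93 at days 1, 6 and 10 and -0.20 at week 0. Over the later 2 pairs it was -0.46, and all 12 tested were at least 2-fold higher at day 1 (background 35.3%). Plin1, perilipin of the lipid droplet, was 2.01, 7.37, 2.45 and 1.26 on the LFC arrays and 5.90, 6.10, 2.17 and 1.72 on the HFC arrays, with HFC day 1 and both day 6 arrays far above the other 5.

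Fatty acid oxidation had a median of 1.16, with 4.26, 0.21 and 0.36 at days 1, 6 and 10 and -0.03 at week 0, and 0.25 over the later 2 pairs. Of 13 tested, 11 were at least 2-fold higher at day 1 (background 35.3%), and Acadm alone was higher in all 4 pairs, where the background is 11.2%. Acadm, the medium-chain acyl-CoA dehydrogenase, was 3.37, 5.78, 3.44 and 3.37 on the LFC arrays and 6.25, 6.40, 3.72 and 3.41 on the HFC arrays, saturated on HFC day 1. Hadhb, a subunit of the mitochondrial trifunctional protein, was 3.10, 5.27, 2.98 and 2.71 on the LFC arrays and 6.02, 6.72, 3.34 and 2.61 on the HFC arrays, saturated on HFC day 1. At day 10 and week 0 both genes differed by 0.36 or less between the diets. Fatty acid uptake and binding genes had a median of 0.36, or 0.05 over the later 2 pairs, and Gpihbp1, which anchors Lpl to capillaries, was 3.47, 5.15, 4.52 and 5.53 on the LFC arrays and 4.84, 6.82, 4.78 and 4.49 on the HFC arrays.

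Brown and beige fat genes had a median of 1.08, with 3.78, 0.54 and 0.03 at days 1, 6 and 10 and 0.00 at week 0, and 0.00 over the later 2 pairs. Of 11 tested, Dio2, Otop1 and Fabp3 were higher in all 4 pairs. Ucp1, the uncoupling protein of thermogenic fat, was 0.04, 6.74, -0.11 and -1.05 on the LFC arrays and 6.41, 6.77, 1.09 and -2.93 on the HFC arrays, saturated on HFC day 1. Its 3 highest levels were on HFC day 1 and both day 6 arrays. Fabp3, the fatty acid binding protein of heart and brown fat, was -0.71, 4.34, -0.71 and -1.30 on the LFC arrays and 5.98, 5.41, 0.19 and -0.94 on the HFC arrays, saturated on HFC day 1. Respiratory chain genes had a mean level of 3.57, 6.13, 3.73 and 3.23 on the LFC arrays and 5.82, 5.65, 3.50 and 3.27 on the HFC arrays and a median of 0.36, with 2.26, -0.62 and -0.28 at days 1, 6 and 10 and -0.02 at week 0, and -0.08 over the later 2 pairs. Cox5b, a subunit of cytochrome oxidase, was 4.27, 7.63, 5.00 and 5.12 on the LFC arrays and 5.96, 7.77, 4.72 and 5.01 on the HFC arrays, saturated on HFC day 1 and LFC day 6. The arrays with the highest levels were again HFC day 1 and both day 6 arrays.

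Adipogenic transcription factors had a median of 0.30 and -0.06 over the later 2 pairs. Of 13 tested, Ebf1, Ebf2, Zfp423 and Rxra were higher in all 4 pairs, although the probes of Rxra differed in sign. Pparg, the master regulator of adipocyte differentiation, was 2.11, 5.11, 3.65 and 3.77 on the LFC arrays and 5.91, 5.61, 3.52 and 3.06 on the HFC arrays, saturated on HFC day 1. Insulin signalling and glucose uptake genes had a median of 0.21, close to that of all genes, and -0.01 over the later 2 pairs. Among those tested, Foxo1 was lower in all 4 pairs. Pck1, which makes glycerol for triglyceride synthesis in fat, was 4.22, 7.22, 4.2 and 3.13 on the LFC arrays and 6.14, 8.31, 4.37 and 3.33 on the HFC arrays, saturated on HFC day 1 and both day 6 arrays, so its day 6 difference gives no direction. Slc2a4, the insulin-responsive glucose transporter, was 2.0, 6.11, 2.22 and 2.13 on the LFC arrays and 5.92, 4.05, 2.25 and 2.27 on the HFC arrays, with its highest levels on HFC day 1 and both day 6 arrays. Adipokines had a median of -0.02, whose sign changed under median centring, and -0.24 over the later 2 pairs, and 0 of 10 had the same sign in all 4 pairs. Retn, the hormone resistin, was 1.87, 6.78, 1.32 and 1.17 on the LFC arrays and 2.53, 4.2, 0.22 and 0.96 on the HFC arrays, higher on High fat at day 1 only.

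Genes of fat synthesis were lower on High fat at days 6 and 10 and at week 0. De novo lipogenesis genes had a mean level of 1.93, 5.55, 1.86 and 1.25 on the LFC arrays and 3.49, 3.36, 0.84 and 0.66 on the HFC arrays and a median difference of -0.47, with 1.34, -2.17 and -1.08 at days 1, 6 and 10 and -0.39 at week 0. Over the later 2 pairs it was -0.73, with 9 of 15 genes at least 2-fold lower at day 10 (background 12.3%) and Scd1, Me1, Mlxipl and Thrsp by as much at week 0 (background 2.32%). Scd1 and Me1 were lower in all 4 pairs. Scd1, the desaturase that makes monounsaturated fatty acids, was 4.25, 7.39, 4.12 and 4.47 on the LFC arrays and 2.88, 6.68, 2.85 and 3.16 on the HFC arrays, saturated on LFC day 6. Each HFC level lay below its LFC partner, with differences of -1.37, -0.71, -1.27 and -1.31, of which the day 6 value is only a bound because LFC day 6 was saturated. Thrsp, a nuclear protein that promotes lipogenesis, was 4.06, 7.52, 3.31 and 3.49 on the LFC arrays and 6.18, 6.33, 1.99 and 2.01 on the HFC arrays, saturated on HFC day 1 and LFC day 6. Its difference was positive at day 1 and negative at the other 3, -1.32 at day 10 and -1.48 at week 0, with day 6 only a bound.

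Slc2a5, the fructose transporter, was -1.92, 4.24, -1.85 and -2.25 on the LFC arrays and -2.53, -0.38, -5.10 and -5.37 on the HFC arrays, and it was named among the genes lowest on High fat at week 0. It was lower in all 4 pairs, with a mean difference of -2.90 (SE 0.68, 4 pairs), and both diets were well above background at every time point. Cholesterol synthesis genes had a median of -0.66, with -0.88, -1.98 and 0.05 at days 1, 6 and 10 and 0.31 at week 0, and 0.24 over the later 2 pairs. Of 17 tested, 11 were at least 2-fold lower at day 6, where the background is 12.4%, and Hmgcs1 was among those higher in all 4 pairs. Hmgcs1, an early enzyme of the pathway, was 3.92, 4.60, 3.43 and 3.48 on the LFC arrays and 4.81, 4.97, 3.88 and 3.73 on the HFC arrays, and its probes differed in sign.

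Immediate-early genes, which respond within minutes to stimuli and to the handling of tissue, stood out by array and not by diet. Their mean level was 3.64, 0.72, 3.89 and 3.78 on the LFC arrays and 0.07, 3.58, 4.2 and 3.80 on the HFC arrays, with HFC day 1 and LFC day 6 far below the other 6. The median of -0.10 combined -3.56, 3.08 and 0.34 at days 1, 6 and 10 and -0.08 at week 0, and it was 0.04 over the later 2 pairs. At day 1, 20 of 22 were at least 2-fold lower on High fat (background 20.2%), and at day 6, 20 of 22 were at least 2-fold higher (background 39.7%). Nr4a1, a nuclear receptor of this class, was 6.48, 3.74, 6.71 and 5.77 on the LFC arrays and 0.14, 6.95, 6.83 and 5.75 on the HFC arrays, saturated on HFC day 10 and both week 0 arrays. Egr3 and Klf2 were higher in all 4 pairs, but the probes of Klf2 differed in sign and its sign changed after quantile normalization.

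Heat shock genes had a median of 0.05, with 0.39, 0.76 and -0.77 at days 1, 6 and 10 and -0.47 at week 0. The median was -0.07 after quantile normalization and -0.65 over the later 2 pairs. Hspa1a, an inducible chaperone, was 5.96, 4.12, 6.92 and 5.33 on the LFC arrays and 1.99, 5.97, 5.56 and 5.28 on the HFC arrays, low on HFC day 1, unlike the list, and otherwise above 4. Genes of the unfolded protein and amino acid stress response had a median of -0.01, whose sign changed under median centring, and -0.30 over the later 2 pairs. Of 12 tested, Sdf2l1, Xbp1 and Psat1 were lower in all 4 pairs and Atf5 was higher, the latter not after quantile normalization. Glucocorticoid response and metallothionein genes had a median of -0.11, with -1.59, 0.80 and -0.34 at days 1, 6 and 10 and -0.24 at week 0, and -0.14 over the later 2 pairs. Mt2, a metal-binding protein, was 4.78, 2.50, 6.61 and 5.61 on the LFC arrays and 3.19, 6.24, 6.36 and 5.57 on the HFC arrays, saturated on both week 0 arrays, and Fkbp5 alone of 13 was lower in all 4 pairs.

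Oxidative stress genes had a median of 0.13 and hypoxia and angiogenesis genes of 0.17, and after quantile normalization these were -0.04 and -0.01. Over the later 2 pairs both were -0.11. Gpx1, a glutathione peroxidase, was 4.96, 6.77, 5.54 and 5.61 on the LFC arrays and 5.19, 6.12, 5.21 and 5.47 on the HFC arrays, and Gsta3 alone of 14 was lower in all 4 pairs. Ldha, lactate dehydrogenase, was 5.38, 6.73, 5.57 and 5.06 on the LFC arrays and 6.19, 6.06, 5.50 and 4.92 on the HFC arrays, saturated on HFC day 1. Ribosomal protein genes had a median of 0.02, or -0.11 after quantile normalization and -0.27 over the later 2 pairs, and several members were saturated. Circadian clock genes had a median of 0.87, with 0.98, 1.93 and 0.25 at days 1, 6 and 10 and -0.01 at week 0. It was 0.23 over the later 2 pairs and 0.41 among members well above background on all 8 arrays. Dbp, a clock output factor, was 4.37, 2.94, 3.51 and 4.53 on the LFC arrays and 4.52, 5.38, 5.16 and 3.78 on the HFC arrays, higher on High fat at days 6 and 10 and lower at week 0. Tef, a related factor, was 1.28, 0.29, 0.09 and 1.39 on the LFC arrays and 2.72, 1.56, 1.57 and 1.26 on the HFC arrays, higher on High fat by more than 1.2 at days 1, 6 and 10.

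Cell cycle genes were lower on High fat at day 1 and less so at day 10. Their median was -1.17, with -4.2, 0.13 and -0.67 at days 1, 6 and 10 and -0.12 at week 0, and -0.36 over the later 2 pairs. Of 15 tested, 13 were at least 2-fold lower at day 1 (background 20.2%), and Ccnb2 and Mcm5 were lower in all 4 pairs. Mki67, a marker of dividing cells, was 2.83, 2.45, 2.95 and 2.50 on the LFC arrays and -2.47, 2.46, 1.99 and 2.13 on the HFC arrays, with HFC day 1 alone below 1.99. Pcna, the sliding clamp of DNA replication, was 4.17, 4.00, 4.35 and 3.92 on the LFC arrays and 2.70, 4.68, 3.93 and 3.66 on the HFC arrays.

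Markers of neighbouring tissues differed widely between arrays. Keratinocyte and skin markers had a mean level of 1.65, -4.01, 0.50 and -4.15 on the LFC arrays and -3.81, -1.83, -3.79 and -4.12 on the HFC arrays, high on LFC days 1 and 10 alone. Their median difference was -2.18, with -6.01, 1.82 and -4.75 at days 1, 6 and 10 and 0.09 at week 0, and -2.06 over the later 2 pairs. Krt5, a keratin of basal skin cells, was 2.81, -4.44, 1.70 and -3.35 on the LFC arrays and -4.01, -2.02, -3.22 and -3.26 on the HFC arrays, not well above background on LFC day 6. Of 10 tested, Trp63 was lower and Sfn was higher in all 4 pairs, and the probes of Sfn differed in sign. Mammary and luminal epithelium markers had a median of -0.16, or 0.19 over the later 2 pairs, and Lalba alone of 10 was higher in all 4 pairs. Krt18, a keratin of luminal epithelium, was 1.18, -3.24, 2.05 and 1.25 on the LFC arrays and -4.96, -2.40, 1.50 and 1.61 on the HFC arrays, with HFC day 1 and both day 6 arrays below -2. The LFC arrays with high lymph node markers at days 1 and 10 were also those with high skin markers, and the part of neighbouring tissue in any result was not tested.

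Skeletal muscle markers had a mean level of 1.49, 4.86, 0.78 and -0.10 on the LFC arrays and 3.78, 1.20, 1.27 and 0.74 on the HFC arrays and a median of -0.14, with 1.34, -3.43 and 0.47 at days 1, 6 and 10 and 0.80 at week 0, and 0.70 over the later 2 pairs. At day 6, 14 of 14 were at least 2-fold lower on High fat (background 12.4%). Acta1, the actin of skeletal muscle, was 3.65, 6.57, 2.61 and 1.65 on the LFC arrays and 4.80, 1.63, 3.35 and 2.49 on the HFC arrays, highest on LFC day 6. Erythroid markers had a median of -0.10, or -0.16 over the later 2 pairs, and Alas2, the haem synthesis enzyme of red cells, was 3.66, 2.66, 3.71 and 1.38 on the LFC arrays and 2.88, 2.74, 4.37 and 0.53 on the HFC arrays, with both week 0 arrays below the other 6. Y chromosome genes had a median of 0.33, or -0.18 over the later 2 pairs, and Uty alone of 4 was higher in all 4 pairs. Uty was well above background on no LFC array and not on HFC day 6.

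The largest differences of single pairs, each from 1 array per diet, were taken among genes well above background on both arrays of the pair. They lay in partly different gene groups. Glycam1 was among them at days 1 and 6 and Ccl21c at days 6 and 10, while keratins were higher at day 6 and lower at day 10. Where 1 of the arrays was near background, some differences exceeded part of those named, as for Il6 at day 1 with -9.78. At day 1 the named lower genes were Glycam1, Faim3, Cxcl10, Serpina3g and Apol7c. Faim3, now Fcmr, the Fc receptor for IgM, was 3.87 on the LFC array and -5.77 on the HFC array. Serpina3g, a serine protease inhibitor, was 4.17 on the LFC array and -4.96 on the HFC array. The named higher genes at day 1 included Ndufs4 and Uqcr, now Uqcr11, of the respiratory chain, both saturated on the HFC array. Ndufs4 was -3.83 on the LFC array and 6.02 on the HFC array, Slc27a2, a fatty acid transporter, -4.59 on the LFC array and 3.87 on the HFC array, and Ppargc1b, a coactivator of mitochondrial genes, -3.54 on the LFC array and 4.46 on the HFC array. Cyp2b13, a cytochrome P450, was -5.94 on the LFC array and 2.33 on the HFC array, but its probes differed in sign, and at the other 3 time points no HFC level was well above background.

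At day 6 the named lower genes were the muscle genes Myh4 and Ckm, and Glycam1, Cd3d and Ccl21c. Myh4, a fast myosin heavy chain, was 7.31 on the LFC array and 0.58 on the HFC array. Ccl21c, a chemokine of the T cell zone that binds Ccr7, was 3.98 on the LFC array and -1.08 on the HFC array and, at day 10, 4.52 on the LFC array and -2.09 on the HFC array. Among the higher genes at day 6, Krt14, a keratin of basal skin cells, was -3.19 on the LFC array and 3.61 on the HFC array, and Itga1, an integrin that binds collagen, -3.58 on the LFC array and 3.22 on the HFC array. Ddx25, Trim55 and Myo1e had LFC day 6 levels of -3.23, -2.33 and -2.85 and HFC levels of 7.28, 6.95 and 5.85. The probes of Ddx25 and of Myo1e differed in sign.

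At day 10 the lower genes included the skin genes Krt10, Krt71 and Lor. Lor, the cornified envelope protein loricrin, was 2.28 on the LFC array and -4.15 on the HFC array. Fut7, a fucosyltransferase of leukocytes, was 2.98 on the LFC array and -2.91 on the HFC array. The 5 named higher genes at day 10 were Pklr, Dbi, Stk11, Ndfip1 and Pink1. Dbi, an acyl-CoA binding protein, was -1.30 on the LFC array and 5.29 on the HFC array, and its LFC day 10 level was the lowest of its 8 by more than 6. Pklr, a pyruvate kinase, was -5.66 on the LFC array and 6.34 on the HFC array, saturated on HFC day 10 and below -3 on the other 7 arrays. It was not well above background on LFC day 1, HFC day 6 or either week 0 array.

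At week 0 the lower genes by this filter were Ccl20, Sbk2, Slc2a5, Nlrp2 and Tnfsf11, the last the cytokine RANKL. Tnfsf11 was -3.98 on the LFC array and -6.59 on the HFC array. The HFC levels of Ccl20, Sbk2 and Tnfsf11 lay near the lowest level called well above background on that array, -7.07. The higher genes at week 0 were Cftr, Skint11 and the pancreatic proteases Try5, Prss3 and Cpb1. Try5, a trypsin, was -5.87 on the LFC array and -1.15 on the HFC array, Prss3 -4.93 on the LFC array and -0.21 on the HFC array, and Cpb1, a carboxypeptidase, -3.96 on the LFC array and 0.23 on the HFC array. These 3 were highest on HFC week 0 of all 8 arrays, and the sign of the 4-pair mean of Cpb1 changed after quantile normalization.

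The check pair of day 14 differed from the week 0 pair of the same day. Among 19298 genes with a value, 7844 (40.6%) were at least 2-fold higher and 7291 (37.8%) at least 2-fold lower on its High fat array. Spearman's correlation of its arrays across genes was 0.537. The lymph node list had a median of 2.72 at day 14 against -0.57 at week 0, and the macrophage list 0.74 against 0.22. Slpi was 4.47 apart and Cxcl13 3.58 apart at day 14, higher on High fat, where all 4 pairs had them lower. Its LFC array had a 75th percentile of 2044 and a median signal over background of 55.4, against 552 and 6.27 on the HFC array.

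With the day 14 pair added, 4 genes were at least 2-fold apart the same way in all pairs, picked out here after their values were seen, and each of the 3 named had 1 or more spots near background in the 4 pairs. L3mbtl2, a Polycomb-related protein, was higher, with differences of 1.93, 4.49, 3.71 and 1.34 in the 4 pairs and 1.64 at day 14. Tmem151b was lower, with -3.47, -1.73, -2.34 and -1.36 and, at day 14, -1.91. Oosp1, named for the oocyte, was lower, with -2.18, -1.53, -4.74 and -1.04 and, at day 14, -3.16. The last gene, also lower, carries an identifier for a name.

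Later in the feeding, from week 6 to week 18, most of these genes did not keep one direction. The week 3 pair is not used, since 16.8% of the spots of its LFC array were well above background. Of the lymph node genes, Ccr7 was higher on High fat in 5 of 5 later pairs, Ltb and Ccl19 in 4 of 5 and Glycam1 in 3 of 4. Cxcl13, of the same list, was higher in 2 of 5 and lower in 3. Slc2a5, lower in all 4 early pairs, was lower in each of the 4 later pairs with a value. Slpi differed by 2.03, 1.00, 2.42, 2.45 and -2.02 in the 5 pairs of weeks 6, 9, 12, 15 and 18, and so was higher on High fat in 4 of them. Scd1 differed by -0.29, -0.38, -2.80, -1.25 and 2.31, lower on High fat in 4 of them. The exception for both genes was week 18. That pair also held far larger differences in some other genes than the other later pairs, such as 12.9 for Dcn and 11.8 for Col3a1. Whether the early and later differences differ from each other was not tested.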

How the data were processed

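The deposited intensity values were made by the authors with Agilent Feature Extraction, 10.5.1.1 per the file headers and 9.1 in the submitters' notes, which subtracted background and corrected spatial trends, with no scaling of arrays to each other. The authors' fold-change table was not used. Outlier spots were dropped, duplicate spots averaged, and each log2 signal shifted by its array's 75th percentile. A gene was represented by its brightest probe with a value on all 8 arrays, which left 28709 genes, and tested if well above background on at least 2 arrays of either diet. R 4.3.3 with limma 3.58.1 compared the diets with the time point label as block, leaving 3 residual degrees of freedom, with Benjamini-Hochberg adjustment over 23245 genes. The code was tested on simulated data. Python 3.11.15, pandas 2.3.3, NumPy 2.4.6 and matplotlib 3.10.9 made the tables and plots. Across genes, the arrays of a time point deviated from their diets' means with correlations of -0.177, 0.489, 0.244 and 0.574.

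By rule, genes are named as the 10 per direction with the largest smallest difference over the 4 pairs among those well above background on all 4 arrays of a diet, the 5 largest differences per direction and time point where both spots were well above background, and examples from the 4 brightest members of each of 46 lists (24 of cell types, 22 of pathways). List members outside this rule that make up a count are also named, and were picked after their values were seen. Names that are only identifiers were counted. The members and lists were chosen with earlier results of these data known. The alternatives changed background correction, scaling, filters, outlier spots, probes, block, test and pairs. The number of arrays limits the precision.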

Additional observations from a re-analysis of the deposited data

Results flagged for a closer look

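The values below come from single arrays that stood apart from the other 3 of their diet, by a gap large against the group's range. Of 100 groups of 4 values examined, 12 held such an array, where chance gives about 1 in 20 groups. The groups share arrays and some genes, so they are not independent, and an excess over chance was not tested.

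On LFC day 6 the mean level of the neutrophil list was -1.68, that of the Schwann and nerve list 0.032, and that of the immediate-early list 0.72, each below the other LFC arrays. On the same array the mean level of de novo lipogenesis genes was 5.55 and that of fatty acid oxidation genes 3.09, each above the other LFC arrays, and 52.2% of its spots were well above background, the lowest share of the LFC arrays.

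On HFC day 1 the mean level of immediate-early genes was 0.069 and that of complement genes -0.33, each below the other HFC arrays, and 81.6% of its spots were well above background, the highest share of the HFC arrays. On HFC day 6 the mean level of keratinocyte and skin markers was -1.83 and that of oxidative stress genes 2.94, each above the other HFC arrays. On LFC week 0 the mean level of erythroid markers was -0.78, below the other LFC arrays.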

How the results depend on the processing

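Calls by limma at an adjusted p under 0.05 were 0 higher and 0 lower under every alternative, all of which were run, except normexp background correction with an offset of 50, which gave 57 higher and 6281 lower, with a median of -0.73 over all genes. On 4 of the arrays 2 to 8 spots had background above signal by over 50. Without those spots, a choice made after seeing the data, normexp gave 0 and 0, a median of 0.14 and 776 genes at an unadjusted p under 0.05.

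Genes at least 2-fold apart in the same direction in all pairs numbered 147 (120 higher, 27 lower). They were 276 (3 and 273) with normexp, 7 (3 and 4) with normexp without high-background spots, 12 among genes well above background on all 8 arrays, 55 with dim values raised to the lowest level well above background, and 4 with the day 14 pair. With fewer pairs to satisfy, within-slide pairs gave 653 and the day 10 and week 0 pairs, chosen after seeing the data, 353. Leaving out 1 pair gave 217 (without day 1) to 970 (without week 0). Without the replicate block the calls stayed at 0 and 0 (the count of 147 uses no block), with 877 genes at an unadjusted p under 0.05 against 1640 with it. Quantile normalization gave 111, split 52 and 59, and at days 1 and 6 it gave 5934 and 6303 genes 2-fold higher and 6150 and 5191 lower, against 8209 and 9221 higher and 4700 and 2879 lower with the 75th percentile. The remaining settings gave 149 to 217.

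Genes at least 2-fold apart at a time point numbered 6284 at day 6, 2170 at day 10 and 11932 at week 0 with normexp. They were 7339, 9578, 2167 and 367 in time order without high-background spots. Among genes well above background on all 8 arrays, a smaller set, they were 6441, 5185, 2236 and 346 in time order. With dim values raised, week 0 had 1007. The causes were not tested.

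Of 45 list medians, 40 kept their sign after quantile normalization, 43 after median centring, 37 with the day 14 pair and 20 over the day 10 and week 0 pairs. Of the 20 genes named for all 4 pairs, 20 kept their sign after quantile normalization and 12 with normexp. The smallest adjusted p was 0.0480 with normexp and 0.0825 or more elsewhere. Low signal over background, 2.09 to 7.79 by array, limits values of dim genes.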
